A study of Homo sapiens with 2 samples.

Results

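The 33 genes described here encode the proteins of the cytosolic small ribosomal subunit, together with the paralogue RPS27L. They were taken by symbol: RPS followed by a number, with or without a final A, L or X, plus RPSA and FAU. All 33 were among the 12980 genes compared, of 20981 listed. The labels give the cells as PANC-1, a human line established from a pancreatic ductal carcinoma. One group, shCtrl, carried a control short hairpin RNA, and the other, shWBSCR22, carried a hairpin RNA named for WBSCR22, the older symbol of BUD23. The labels give neither the number of hairpins or clones nor the time after transfection. Each group held 1 library, with 16121638 deposited counts in shCtrl and 15248099 in shWBSCR22. Without replicates the values describe the pair of libraries rather than the conditions, and no p-value was computed.

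The small subunit binds messenger RNA and holds the decoding centre, where codon and anticodon pair. Its proteins sit on the ribosomal RNA in a head, a body and a platform, and most join during assembly in the nucleolus. BUD23 is a methyltransferase that modifies a guanine of the small-subunit RNA and takes part in the maturation of that subunit. Ribosomal protein messenger RNAs start with a run of pyrimidines, the 5′ terminal oligopyrimidine (TOP) tract, through which growth signals control their translation. The libraries measure transcripts, not the proteins or the ribosomes, and in bulk RNA a loss of cells cannot be told apart from less RNA per cell.

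BUD23 itself (ENSG00000071462, chromosome 7, 73683025 to 73705161, GRCh38) went from 3487 counts in shCtrl to 1892 in shWBSCR22. After scaling by edgeR's trimmed mean of M values (TMM) it was 39.1% lower in shWBSCR22, a log2 ratio of -0.72 (interval -1.01 to -0.43). The interval given for log2 ratios is an exact 95% interval made after counts were divided by the most frequent low count of each library, 8 in shCtrl and 15 in shWBSCR22. Low counts pile up there, the sources do not say why, and it is unknown whether each deposited count is 1 read. Of the 6 ductal markers, KRT7, KRT8 and KRT18 carried the summed level of 1941 FPKM in shCtrl and 1624 in shWBSCR22. The others were at or near 0: KRT19 at 0 in both, EPCAM with 15 and 0 counts and CDH1 with 2 and 0. Fibroblast markers summed to 6.54 and 14.1 FPKM with 5 of 6 in the table, leukocyte markers to 7.16 and 0.337 with 3 of 6, and the acinar marker found, 1 of 5, to 0 and 0.538. The part of these differences in the results below was not tested.

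Small-subunit transcripts took 5.65% of all counts in shCtrl (exact 95% interval 5.63 to 5.66) and 5.23% in shWBSCR22 (5.22 to 5.24). These share intervals take each deposited count as 1 read, without the division, and would be wider with it. Large-subunit protein genes took 8.93% and 8.70%, so small-subunit genes made up 38.7% of ribosomal protein counts in shCtrl and 37.6% in shWBSCR22. The share was lower in shWBSCR22 on both measures. On the TMM scale the summed small-subunit counts had a log2 ratio of -0.02 (-0.04 to -0.01) and the summed large-subunit counts one of 0.05 (0.04 to 0.06). With RPS13, RPS18 and RPS26 left out, a choice made after their values were seen, the small-subunit sum was at 0.02. Its interval of -0.0003 to 0.03 barely held 0. These are the lowest ratios of the family, so leaving them out had to raise the sum. By total counts alone the sums were at -0.11 for the small and -0.04 for the large subunit.

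The family differed little as a whole between the libraries, and its members did not move one way. The median log2 ratio of the 33 genes was -0.04, with 20 below 0 and 13 above and a range of -0.69 to 0.72. It was -0.02 over all 12980 genes compared and 0.07 over the 1635 genes of at least 100 CPM (counts scaled to a common library total), the abundance class of 29 members. The SD of the log2 ratio was 0.24 over those 29 members and 0.44 over the 1635 genes. For 48 large-subunit genes the median was -0.03 and the SD 0.34. For the 45 of them of at least 100 CPM, these were -0.04 and 0.32.

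None of the members differed by the size rule, a log2 ratio of at least 1 in either direction with an interval that excludes 0. Among all genes compared 4.19% were higher and 2.98% lower by that rule, and among genes of at least 100 CPM 2.81% and 0.428%. The interval lay above 0 for 7 members, against 10.8% of all genes compared and 35.4% of genes of at least 100 CPM. It lay below 0 for 9 members, against 8.2% and 21.7%. With total-count scaling or FPKM, 16 members were below and 5 above, beside 29.1% and 29.3% of genes of at least 100 CPM. Since the 7 and the 9 all belong to the 29 abundant members, the matching shares are 24.1% above and 31.0% below. The interval held 0 for the other 17. With the counts as deposited, without the division, the interval was above 0 for 9 members and below 0 for 17, against 34.6% and 35.4% of all genes compared and 50.5% and 36.1% of genes of at least 100 CPM.

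**Figure D1:**
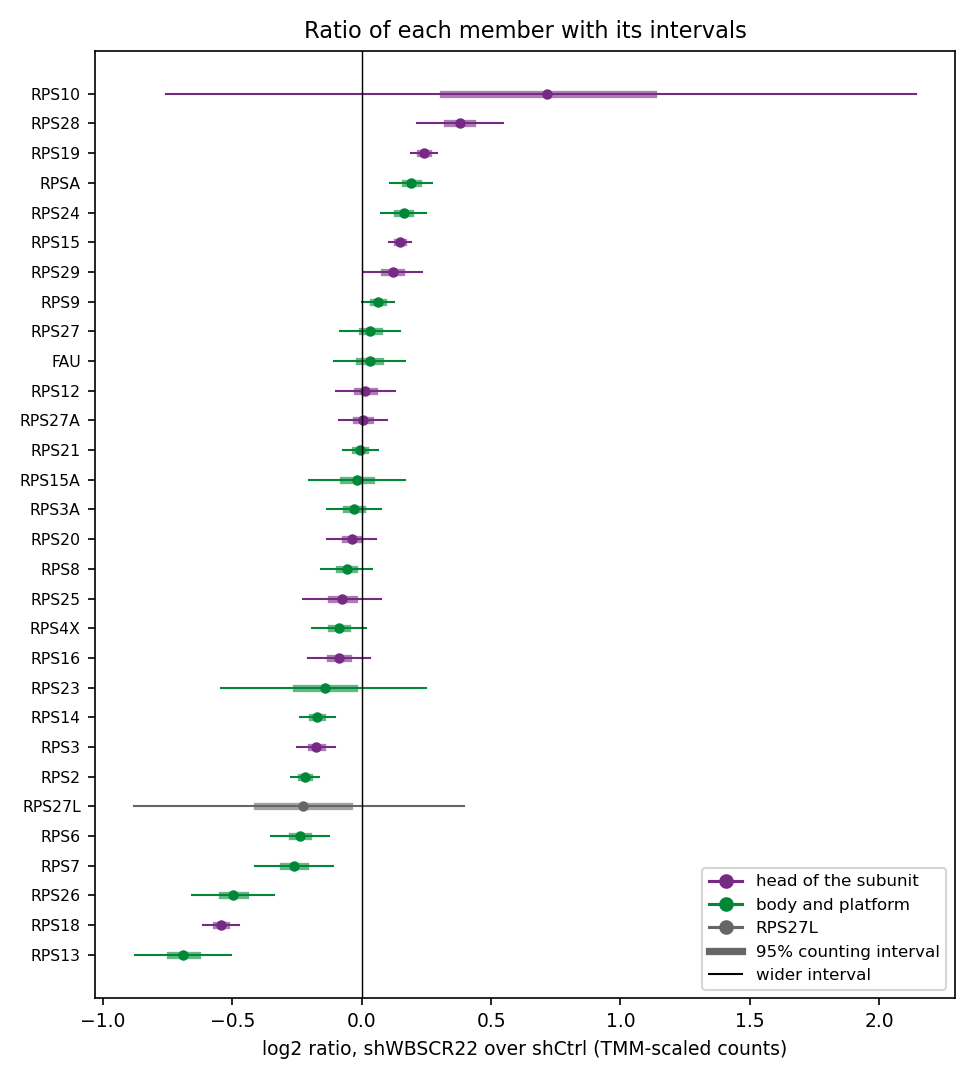
Log2 ratio of shWBSCR22 over shCtrl for 30 of the 33 genes on the horizontal axis, from TMM-scaled counts, with the 95% counting interval as a thick bar and the wider interval as a thin line. Colours mark the head and the body or platform of the subunit; RPS13, RPS18 and RPS26 lie apart at the bottom, and the widest interval shown belongs to RPS10, which has few counts.

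The lowest ratios belonged to RPS13, RPS18 and RPS26. RPS13 (ENSG00000110700, chromosome 11, 17074389 to 17077787, minus strand) binds the central part of the small-subunit RNA. It had 8463 counts in shCtrl and 4674 in shWBSCR22, with a log2 ratio of -0.69 (-0.88 to -0.51), or 38.0% lower. BUD23 was 39.1% lower in the same libraries, and a link between the genes was not tested. Some 6.77% of the exonic bases of RPS13 also lie in exons of PIK3C2A or of a small nucleolar RNA gene on the same strand.

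RPS18 (ENSG00000231500, chromosome 6, 33272010 to 33276510, plus strand) lies in the head and reaches towards the peptidyl tRNA. It had 56289 counts in shCtrl and 34399 in shWBSCR22, with a log2 ratio of -0.54 (-0.61 to -0.48). RPS18 accounted for the greatest loss of counts of any member. RPS26 (ENSG00000197728, chromosome 12, 56041351 to 56044676, plus strand) lines the channel through which messenger RNA leaves the subunit, and its gene is mutated in some patients with Diamond-Blackfan anaemia. Its counts were 10571 and 6679, with a log2 ratio of -0.50 (-0.65 to -0.34).

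A second set was lower by less. RPS7, which also binds the p53 regulator MDM2, had 10355 and 7698 counts, which gave -0.26 (-0.41 to -0.11). RPS6, the substrate of the S6 kinases, had 18204 and 13756 counts and a ratio of -0.24 (-0.35 to -0.13). RPS2, an arginine-methylated protein near the entry of the messenger RNA channel, had 77323 and 59167 counts and a ratio of -0.22 (-0.27 to -0.17). These 3 genes thus had ratios between -0.26 and -0.22. Some 25.6% of the exonic bases of RPS2 also lie in exons of same-strand genes that the deposited data do not list. RPS3 and RPS14 were at -0.18 and -0.17, from 40653 and 32067 counts and 47802 and 37801 counts. RPS14 is the gene tied to the anaemia of the 5q deletion syndrome.

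At the other end, RPS28 and RPS19 were highest among the 29 abundant members. RPS28 (ENSG00000233927, chromosome 19, 8321158 to 8323340, plus strand), at the exit of the messenger RNA channel, had 6235 counts in shCtrl and 7225 in shWBSCR22. Its log2 ratio was 0.38 (0.21 to 0.54). Some 21.4% of the exonic bases of RPS28 also lie in exons of opposite-strand genes, NDUFA7 and KANK3 among them. How strand was handled in counting is not given. RPS19 (ENSG00000105372, chromosome 19, 41859918 to 41872926, plus strand), the gene most often mutated in Diamond-Blackfan anaemia, had 68086 and 71685 counts and a ratio of 0.24 (0.19 to 0.29). Both were higher in raw counts as well, although shWBSCR22 is the smaller library.

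RPSA, also known as a laminin receptor, had 27823 and 28323 counts, which gave a log2 ratio of 0.19 (0.11 to 0.27). RPS28, RPS19, RPSA and RPS15, which is needed for export of the subunit precursor, kept intervals above 0 in all scalings tried. RPS24 had 25465 and 25387 counts (0.16, 0.08 to 0.25), RPS15 had 99747 and 98530 (0.15, 0.10 to 0.19), and RPS29 had 15195 and 14717 (0.12, 0.01 to 0.23). Raw counts of these last genes were lower in shWBSCR22, and RPS24 and RPS29 no longer had intervals above 0 when libraries were scaled by total counts. The ratios of RPS24 and RPS29 themselves stayed above 0, at 0.07 and 0.03 with that scaling.

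The highest ratio of all, 0.72 for RPS10, rested on 88 counts in shCtrl and 129 in shWBSCR22, and its interval of -0.76 to 2.14 held 0. RPS10 is a head protein near the entry of the messenger RNA channel. Of its exonic bases, 39.4% are shared on the same strand with the read-through gene RPS10-NUDT3, which is not used here. The 17 members whose interval held 0 included both fusion genes, RPS27A, which encodes ubiquitin joined to the ribosomal protein, and FAU, which encodes a ubiquitin-like protein joined to it. RPS27A had 22606 and 20219 counts (0.00) and FAU 10549 and 9604 (0.03). RPS16, whose tail reaches the peptidyl tRNA, had 14341 and 12028 counts and a ratio of -0.09 (-0.21 to 0.03).

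**Figure D2:**
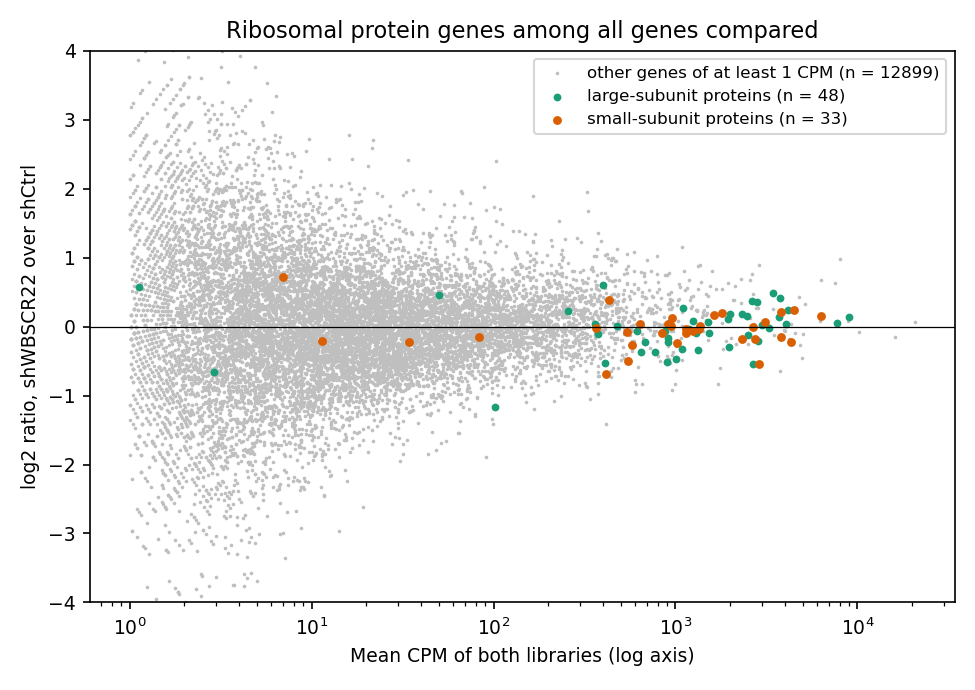
Log2 ratio of shWBSCR22 over shCtrl against the mean CPM of both libraries (log axis) for every gene compared, with the 33 small-subunit genes in orange and 48 large-subunit genes in green. The small-subunit genes lie at high abundance within the spread of other genes; 412 genes, no member among them, fall outside the vertical limits of -4 and 4.

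Grouped by place in the subunit, the 14 head proteins had a median log2 ratio of -0.02, with 4 intervals above 0 and 3 below. The 18 body and platform proteins had -0.04, with 3 above and 6 below. RPS27L was placed in neither. For these and the next counts, the shares above and below 0 were 35.4% and 21.7% of genes of at least 100 CPM. Over all genes compared they were 10.8% and 8.2%. By ancestry, the 15 proteins with a bacterial counterpart had a median of -0.09, with 4 above and 6 below, and the 17 without one had -0.01, with 3 above and 3 below. The 10 members listed as Diamond-Blackfan anaemia genes had a median of 0.08, with 4 above (RPS28, RPS19, RPS24 and RPS29) and 2 below (RPS26 and RPS7). That median turned to -0.010 under total-count scaling and was -0.010 and -0.011 with FPKM.

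By chromosome, the 33 genes lie on 17 chromosomes, with 7 of them on chromosome 19. On chromosome 19 the interval was above 0 for 4 genes, RPS28, RPS19 and RPS15 among them, and below 0 for 1, with a median log2 ratio of 0.15. For the 26 genes elsewhere it was above 0 for 3 and below 0 for 8, with a median of -0.07. Of the 251 chromosome 19 genes of at least 100 CPM outside the family, 41.0% were above 0 and 16.7% below, with a median of 0.12. Over genes of at least 100 CPM on all chromosomes the shares were 35.4% and 21.7%. The shares for the other chromosomes alone were not computed. Across the members, log2 ratio and transcript GC content had a Spearman correlation of 0.25 (n = 33 genes of the same libraries), and it was 0.24 over the 1561 genes of at least 100 CPM that encode no ribosomal protein.

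The first transcribed bases were set beside these ratios, because the TOP tract is the sequence that ribosomal protein messages share. Each line runs from 10 bases before to 20 bases from the annotated start, in RefSeq GRCh38.p14, with the pyrimidine motif CTTT in capitals. The first 5 genes are ones above 0 and the next 5 ones below 0. RPS19 has another annotated start (window chr19:41860394-41860423), not printed, whose window holds no CTTT.
RPS28 (chr19:8321486-8321515, plus strand): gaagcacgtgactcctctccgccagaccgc
RPS19 (chr19:41860245-41860274, plus strand): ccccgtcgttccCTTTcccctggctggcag
RPSA (chr3:39406710-39406739, plus strand): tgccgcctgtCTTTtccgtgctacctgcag
RPS24 (chr10:78033853-78033882, plus strand): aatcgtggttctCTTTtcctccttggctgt
RPS15 (chr19:1438386-1438415, plus strand): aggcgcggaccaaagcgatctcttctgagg
RPS13 (chr11:17077648-17077677, minus strand): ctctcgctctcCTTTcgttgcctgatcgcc
RPS18 (chr6:33272065-33272094, plus strand): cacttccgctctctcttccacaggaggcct
RPS26 (chr12:56041908-56041937, plus strand): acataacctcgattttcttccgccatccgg
RPS7 (chr2:3575250-3575279, plus strand): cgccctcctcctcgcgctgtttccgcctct
RPS6 (chr9:19380217-19380246, minus strand): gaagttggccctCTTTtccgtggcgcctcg

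CTTT was found on the transcribed strand in 65.5% of the 29 annotated start windows of 26 members. All 35116 promoters of the same table gave 12.5%, and 51 windows of large-subunit genes gave 60.8%. Its reverse complement AAAG was in 3.45% of member windows and 9.64% of all. A start at C followed by pyrimidines, at least 5 in a row, was in 65.5% of member windows and 4.07% of all. On either strand, the letters CCGGAA, the core bound by ETS factors, were in 58.6% of the member promoters of 300 bases and in 17.2% of all.

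The 18 genes with CTTT in a window ran from -0.69 (RPS13) to 0.72 (RPS10) with a median log2 ratio of 0.00. The 8 without it ran from -0.54 (RPS18) to 0.38 (RPS28) with a median of -0.16. The split is by CTTT and not by the pyrimidine run at the start. RPS18, without CTTT, starts with 9 pyrimidines in a row, and RPS13, with CTTT, starts with 6. The upper end of the first set rests on RPS10 with its few counts, and the next gene in it is RPS19 at 0.24. A match is a description of letters at an annotated start, which need not be the start used in these cells.

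Levels within the family were compared per length, as the FPKM that the authors deposited. The family summed to 23574 FPKM in shCtrl and 21900 in shWBSCR22. The 4 highest members, RPS15, RPS21 and RPS2 among them, were the same in both libraries and held 43.1% of the family's FPKM in shCtrl and 45.7% in shWBSCR22. RPS15 stood at 2886 and 3011 FPKM, RPS21, a small eukaryotic protein of the body, at 2690 and 2522, and RPS2 at 1982 and 1601. The median member was at 427 and 358 FPKM.

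**Figure D3:**
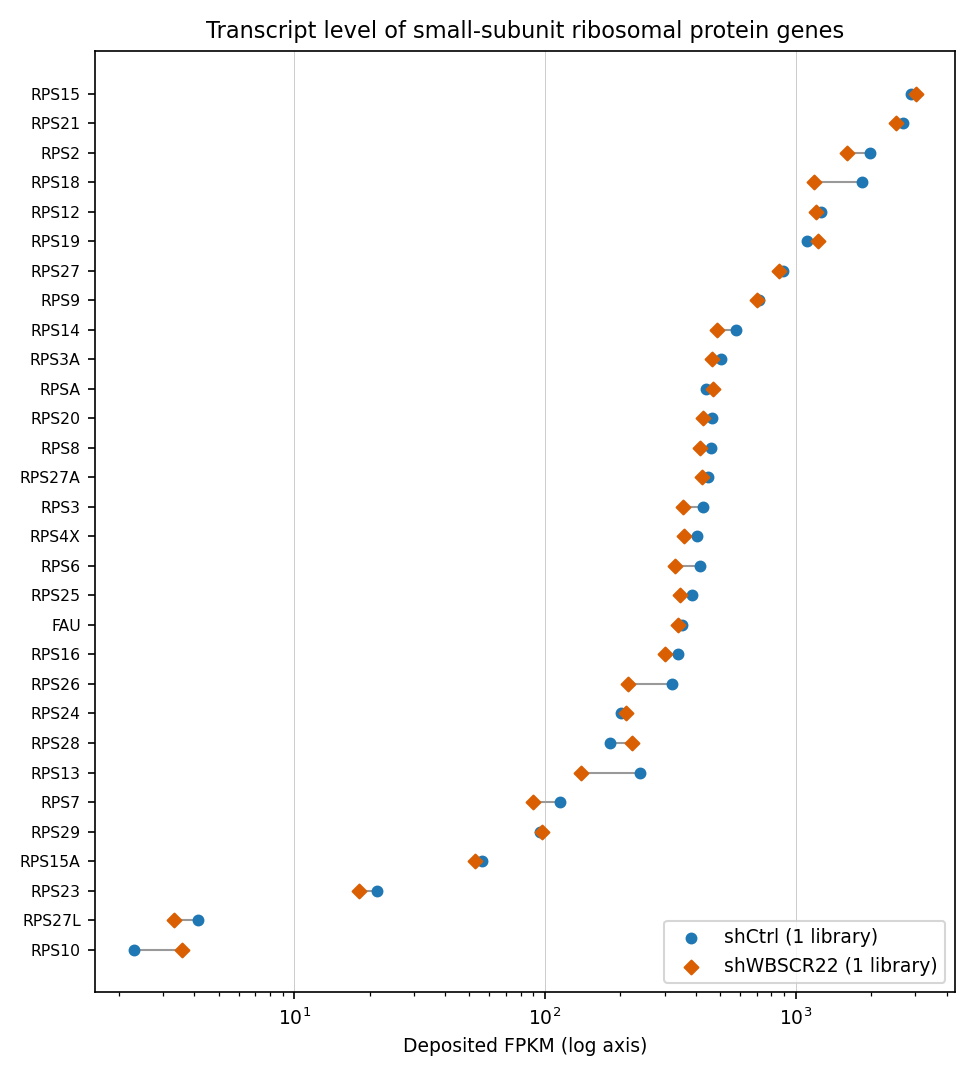
Deposited FPKM of 30 of the 33 genes (log axis) in the shCtrl library (circles) and the shWBSCR22 library (diamonds), ordered by mean, with a line joining the 2 values of a gene. RPS10, RPS27L and RPS23 lie under 22 FPKM and RPS15 near 3000.

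The order of the members changed little between libraries, with a Spearman correlation of their FPKM of 0.987 (n = 33 genes). RPS18 moved from 7.78% of the family's FPKM and rank 5 in shCtrl to 5.41% and rank 7 in shWBSCR22. RPS19 moved from 4.70% and rank 8 to 5.63% and rank 5. RPS13 went from 1.02% to 0.638%. RPS15 gained share, from 12.2% to 13.8%.

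RPS10, RPS23 and the paralogue RPS27L were far below most of the family, although RPS10 and RPS23 are standard parts of the subunit. RPS10 was at 2.31 and 3.57 FPKM and RPS27L at 4.13 and 3.32. RPS23, which lies at the decoding centre, was at 21.3 and 18.2 FPKM from 1449 and 1169 counts. RPS27L, a p53 target in the literature, had 609 and 464 counts, and RPS27, its paralogue and a zinc-binding platform protein, 14878 and 13572. RPS27 exceeded RPS27L 215-fold by FPKM in shCtrl and 258-fold in shWBSCR22, but 24.4-fold and 29.3-fold by counts. Both have 252 coding bases, while the FPKM lengths are 1035 and 9127 bases. The ratio of each to itself between libraries was 0.03 (RPS27) and -0.23 (RPS27L), the latter with an interval of -0.88 to 0.39.

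The deposited FPKM used the length of all annotated exonic bases of a gene, over all its transcripts, and the rank of some members depended on this. RPS29 had 9845 such bases, against 296 in its main transcript and 168 coding. It ranked 28 by FPKM in shCtrl with 0.405% of the family, but 9 by counts over main transcript length with 3.99% and 8 by coding length with 4.61%. RPS24 moved in the same way from rank 25 to 12 and 11, and RPS12 fell from 6 to 16 on both. In all, 10 members moved by 5 ranks or more with transcript length. In shCtrl, RPS15 and RPS21 held ranks 1 and 2, and RPS10, RPS27L and RPS23 stayed among the lowest 4, under all 3 lengths. In shWBSCR22, RPS21 ranked 3 by FPKM and by coding length.

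**Figure D4:**
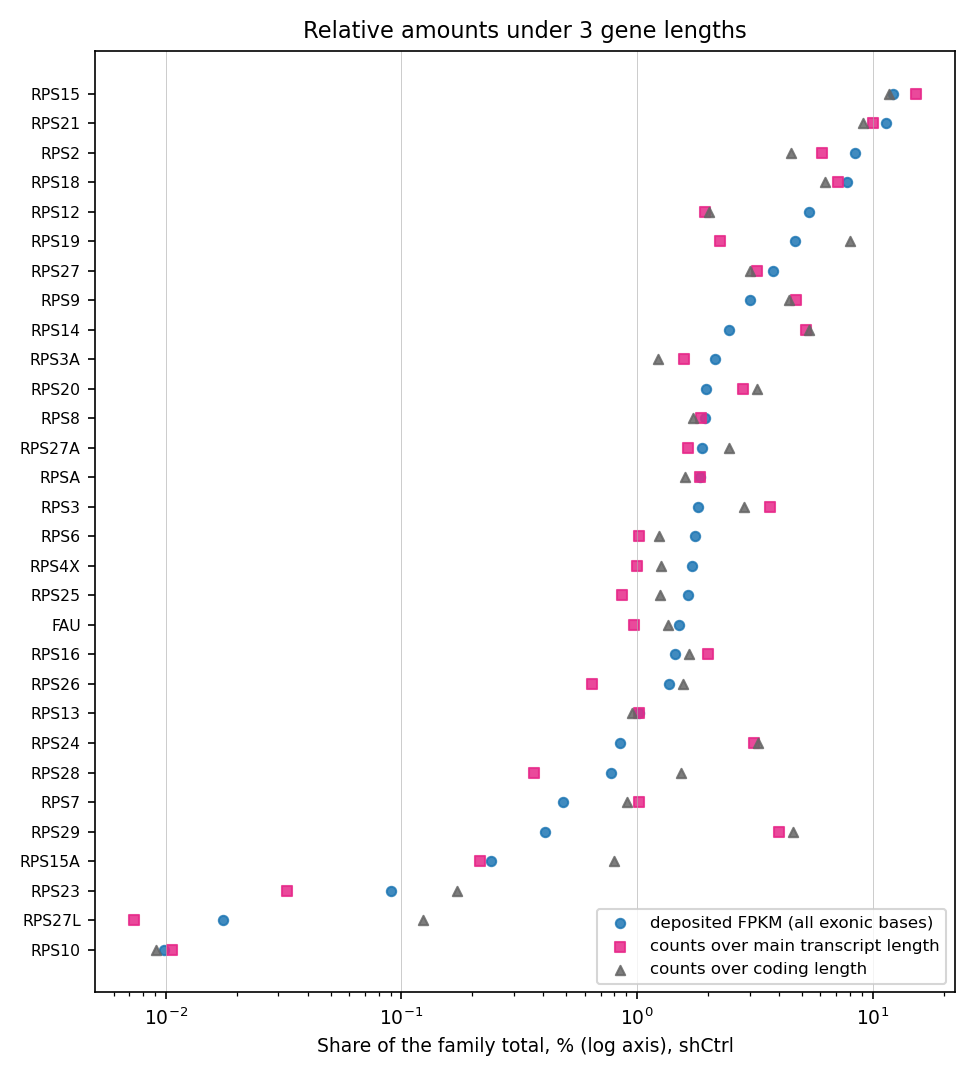
Share of the family total in shCtrl (percent, log axis) for 30 of the 33 genes by deposited FPKM, by counts over main transcript length and by counts over coding length. RPS29 and RPS24 lie far to the left by FPKM and RPS12 to the right, while RPS15 and RPS21 stay at the top.

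Many of these genes have processed copies that share their sequence. The table lists 95 named pseudogenes of 22 members, and they took 0.187% of counts in shCtrl and 0.188% in shWBSCR22. RPS28P7 (chromosome 11, 82689559 to 82689768) had 20054 and 21132 counts, 3.22 and 2.92 times those of RPS28. Its 210 bases are identical to the RPS28 transcript over their full length, so reads over those bases cannot be told apart, whereas the rest of the 1326-base RPS28 transcript lies outside the copy. Summed, RPS28 and RPS28P7 gave a log2 ratio of 0.28 (0.19 to 0.36) in place of 0.38. Pseudogenes of RPS10 had 228 and 225 counts, more than RPS10 itself, and the sum had a ratio of 0.33. RPS2 pseudogenes had 3495 and 1795 counts. With pseudogene counts added, each of the 33 members had its interval on the same side of 0, or holding 0, as before.

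Genes related to the small subunit or to TOP messages were read from 4 lists. Of 22 factors of small-subunit maturation, all measured, the interval was below 0 for 9 and above 0 for none, beside 8.2% and 10.8% of all genes compared, with a median log2 ratio of -0.56 against -0.02 for all genes compared. By the size rule 2 were lower, beside 2.98% of all genes compared, both named after their values were seen: ABCE1, a ribosome recycling ATPase (254 and 74 counts, -1.61, -3.34 to -0.23), and PDCD2L (122 and 0 counts, with an interval that ends at -0.80). Among the more abundant, BYSL, a late assembly factor, had 685 and 364 counts (-0.75, -1.46 to -0.08). RRP12, which takes part in export of the precursor, had 1317 and 742 (-0.66, -1.15 to -0.20), and RPS19BP1, which binds RPS19, had 5385 and 3243 (-0.57, -0.79 to -0.34). BUD23, the gene named by the hairpin, is itself on this list.

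Of 12 genes that modify or bind the proteins, 11 were in the table, with a median log2 ratio of -0.14. The kinase RPS6KA1 was above 0 (2529 and 3294 counts, 0.55, 0.29 to 0.80) and SERBP1, which occupies the channel of idle ribosomes, below 0 (5747 and 4362 counts, -0.23, -0.43 to -0.03). RNF10, a ligase for RPS2 and RPS3, had 1509 and 1215 counts (-0.15) and the S6 kinase RPS6KB2 777 and 628 (-0.14), both with 0 in the interval. None passed the size rule. RPS6, the substrate of these kinases, was itself at -0.24.

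Regulators of TOP messages, 9 of 9 measured, had a median log2 ratio of 0.02, with 2 above 0 and 1 below. The shares above and below are 10.8% and 8.2% of all genes compared, and 35.4% and 21.7% at 100 CPM or more. EIF4EBP2, a repressor of cap-dependent translation, had 585 and 929 counts (0.83, 0.32 to 1.34), and CNBP, which binds TOP messages, had 4572 and 3165 (-0.36, -0.60 to -0.13). TIAL1 had 714 counts in each library (0.17) and EIF4EBP1 13818 and 12566 (0.03), both with 0 in the interval. Of other genes with TOP messages, 19 of 20 were in the table, with a median of -0.12, 3 above 0 and 7 below, beside the same shares. HNRNPA1 was at -0.65 (4024 and 2293 counts), PABPC1, the poly(A)-binding protein, at -0.60 (3687 and 2169), the initiation factor EIF4B at -0.58 (935 and 557) and the elongation factor EEF1B2 at -0.56 (3837 and 2319). These genes were named for having the largest ratios in size of that list at 30 CPM or more. Their distance from the small-subunit median of -0.04 follows from that choice and was not read as a difference. The genes above 0 were TPT1 at 0.37, NAP1L1 at 0.33 and EEF1A1 at 0.10. The value to set beside -0.04 is the list median of -0.12. None in either list passed the size rule.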

How the data were processed

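RNA libraries of shCtrl and shWBSCR22 cells were compared, 1 each. The authors deposited raw counts per gene and FPKM per gene. GRCh38, HISAT2, StringTie, DESeq, FastQC and bcl2fastq are named in the submitters' processing notes; the counting program, annotation and handling of strand and shared reads: not given in the sources used here. Deposited FPKM lengths were within 1% of the union of GENCODE 29 exonic bases for 97.7% of 7348 genes with at least 100 counts in both libraries.

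The 12980 genes averaging 1 CPM or more were kept. Counts were TMM-scaled (edgeR 4.0.16, R 4.3.3, factors 1.03 and 0.970), and log2 ratios taken with 0.5 counts added. Intervals are Clopper-Pearson conditional 95% intervals after division of counts by 8 and 15, the most frequent low counts averaged over 3 neighbours. Low counts pile up at these values, and whether a deposited count is 1 read is unknown. Intervals cover counting error only, since each group held 1 library. The labels mention no molecular identifiers. The size rule was a log2 ratio of at least 1 in size with an interval excluding 0. The ratio and interval functions were run on simulated counts, drawn singly or in groups of 8 and 15. Scaling there came from the genes left unchanged, so TMM was not tested. Groups of the same size as the divisors could not check the choice of divisor.

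The members, gene lists and interval were chosen with earlier results of these data known. The naming rule was the 6 highest and 6 lowest ratios, the 4 highest and 4 lowest FPKM, RPSA, FAU, RPS27A, RPS27, RPS27L, RPS6, RPS16, RPS18, and the 4 largest ratios in size per list at 30 CPM or more; members outside it were named after their values were seen. Alternatives were scaling by DESeq2 (1.42.0), by upper quartile or by total count, 2 counts added, no filter, FPKM with pseudocounts of 0.1 and 1, the undivided interval, ratios relative to the family median, and other shares and lengths. Start sequences were RefSeq's (GRCh38.p14), matched by symbol for 26 members. Values of 3 members are not reported here one by one; counts, sums and medians over the family include them.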

Additional observations from a re-analysis of the deposited data

How the results depend on the processing

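No replicate could be left out with 1 library per group. No paired analysis was possible because each group held 1 library. Over 7 alternatives of scaling, added counts, filter and measure, RPS28, RPS19, RPSA and RPS15 had intervals above 0 and the 9 members below 0 stayed below in every one, while the sign of RPS9, RPS27, FAU, RPS12, RPS27A and RPS21 changed. The median log2 ratio of the family ran from -0.13 to -0.03, and that of all genes moved by at most -0.09. Members below 0 numbered 16, not 9, under total-count scaling and under FPKM with a pseudocount of 0.1 or 1, where 5 rather than 7 were above 0; among genes of at least 100 CPM 29.3% were then above and 29.1% below. With the undivided counting interval 17 were below. The median of members without a bacterial counterpart was -0.093 under those same 3 settings, in place of -0.01. Pathway genes lower by the size rule numbered 1 with an FPKM pseudocount of 1 and 5 with the counting interval, in place of 2. The family's share was 5.31% and 4.85% of the FPKM total and 6.24% and 5.73% of counts without mitochondrial genes. The 4 highest members held 38.8% and 41.4% of the family by transcript length, and 31.6% and 33.3% by coding length. Without the 10 members that overlap another gene of the table, 5 were above 0 and 7 below; this and the addition of pseudogenes were chosen after seeing the data. Depth limits RPS10, RPS27L and RPS23, which are among the 4 members with the fewest counts.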
